A study of Sus scrofa with 6 samples.

Results

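The genes described here encode the proteins of the mitochondrial ribosome. They were taken as every row of the table of FPKM values (fragments scaled by gene length and library total) whose symbol is MRPL or MRPS followed by a number and at most 1 letter from A to C. The rule found 57 of 18007 genes, of which 36 are named MRPL and 21 MRPS, with 1 row per symbol, and they lie on 17 chromosomes. RNA-seq was done on 3 lines of porcine embryonic fibroblasts (PEF5, PEF7 and PEF8) and on the induced pluripotent stem cell line made from each of them (piPSC5, piPSC7 and piPSC8, ips5, ips7 and ips8 in the labels), with 1 library per line. The fibroblasts came from ear tips at embryonic day 90, with a Longwhite boar (Large White in the study's methods) and a Meishan sow as parents, and carried no transgene. The piPSCs carried the lentiviral TetO-FUW-OSKM cassette (Oct4, Sox2, Klf4 and c-Myc) with FUW-M2rtTA, were kept in doxycycline and were grown on mouse embryonic fibroblast feeders in their own medium, so that transgenes, feeders and medium cannot be told apart from the cell state. Each line is the only sample of its kind, and the spread given is the spread between lines.

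Mitochondria keep their own ribosomes, which translate only the few proteins of the respiratory chain and the ATP synthase that the mitochondrial genome encodes. The ribosomal RNAs are made in the organelle, whereas every protein of this ribosome is encoded in the nucleus, made in the cytosol and imported. Part of these proteins have a counterpart in the bacterial ribosome, and the rest were added in the mitochondrial lineage. The large subunit forms the peptide bond and carries the exit tunnel, and the small subunit binds the mRNA and reads its codons. Symbols do not always give the subunit: MRPS18A and MRPS30 sit in the large subunit, so that the members hold 38 proteins of the large and 19 of the small subunit.

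The library totals behind the FPKM values were inferred from these values, at between 11010629 and 17836510 fragments. Of these totals 98.9% to 99.3% fell on the listed genes. They are not counts of sequenced reads, so that this share is no rate of assignment. All 10 fibroblast markers fell in the piPSCs, and their summed level went from between 4437 and 6422 FPKM in PEFs to between 137.5 and 224.4 FPKM in piPSCs. Of 8 pluripotency markers 5 are in the table, with a summed level of at most 0.0854 FPKM in PEFs and between 2.87 and 9.03 FPKM in piPSCs. Only 2 of these 5 were high enough to be tested, and neither passed (lowest limma adjusted p = 0.0626). The cassette also carries Sox2, and whether any of its reads are in the SOX2 row is not given in the sources used here. NANOG, a core factor of the pluripotent state, was at 0 in every library but piPSC7, where it was at 0.0919 FPKM, and SALL4 and ESRRB did not pass 0.1 FPKM in any library. Summed markers of other cell types did not pass 22.1 FPKM for leukocytes (mostly CD14), 2.59 FPKM for endothelium, 4.56 FPKM for cartilage and 9.09 FPKM for keratinocytes, and their part in the results below was not tested. The Y-linked gene DDX3Y had 3439 fragments in PEF8 and 4207 in piPSC8 and 0 in the libraries of lines 5 and 7. The study describes all the PEF lines as male, and no other Y-linked gene was examined here.

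Genes of the mitochondrial ribosome were mostly higher in the piPSCs. Of 52 members with a mean of at least 0.5 FPKM, 38 rose at an adjusted p under 0.05 (limma) and 1, MRPS6, fell, and 13 passed in neither direction. That is 73.1% of the tested members for a rise, against 30.3% of all 12428 tested genes. For a fall, the share of all tested genes was 21.5%. At least a 2-fold change was found for 19 members that rose, against 20.2% of all tested genes, and for MRPS6 alone among those that fell, against 16.7%. The median difference over the tested members was 0.89 on the log2(FPKM + 1) scale, and the median over all tested genes was 0.20. The interquartile range of the members ran from 0.45 to 1.24. The scale of the table bears on the weaker calls. After a rescaling of the libraries by their median ratio or to equal sums, the median of all tested genes moved to -0.01 or -0.06, and the members' median to 0.64 or 0.63. Then 27 or 26 members rose (51.9% or 50% of those tested, against 22.7% or 21.1% of all tested genes) and 3 fell. The rise took 58.5% of the calls over all genes as deposited, and 46.5% or 43.7% after rescaling.

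**Figure D1:**
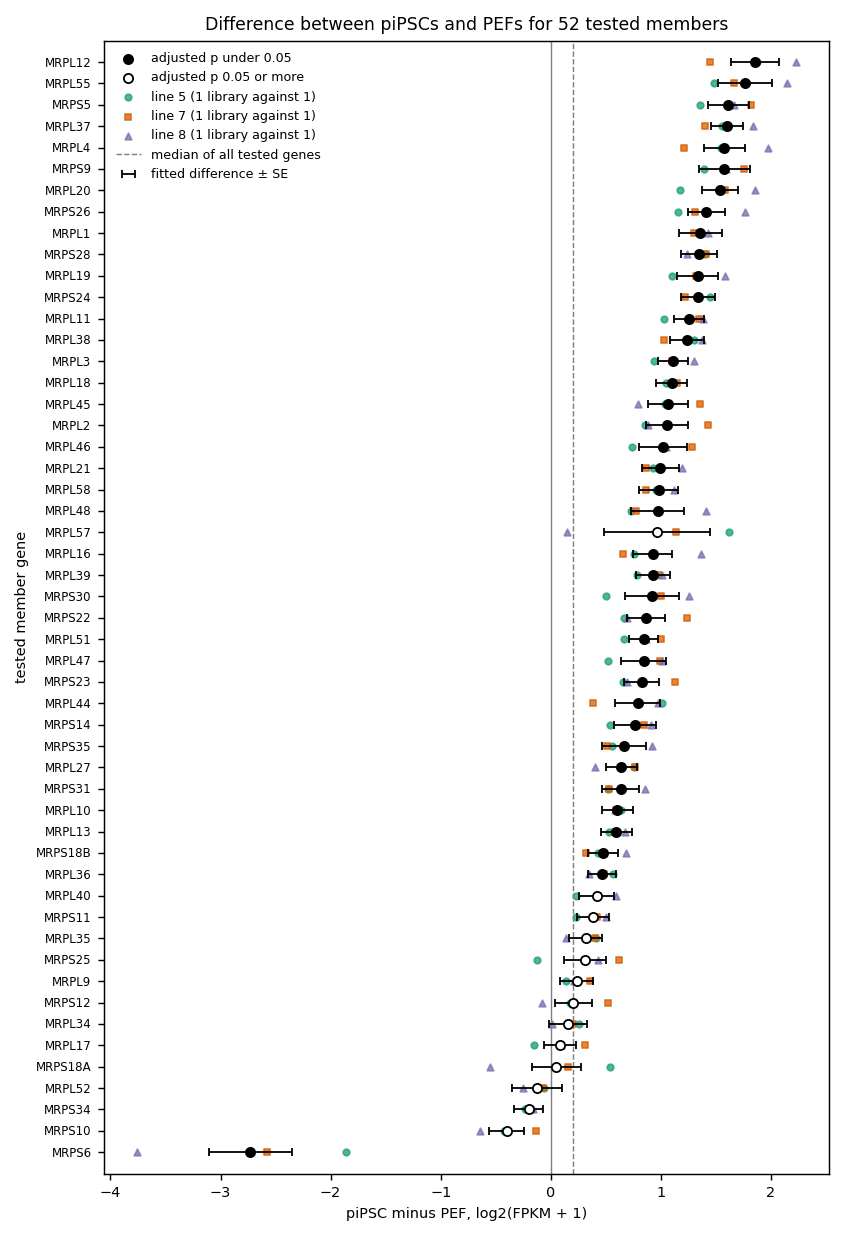
Difference between piPSCs and PEFs in log2(FPKM + 1) for each of the 52 tested members, as the fitted difference with its SE (circles, filled at an adjusted p under 0.05) and as the ratio within each line (coloured marks). MRPS6 stands at -2.73, and the other members run from -0.40 to 1.85, most of them above the dashed median of all tested genes at 0.20.

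All 3 piPSC values lay above all 3 PEF values for 42 tested members, against 37.3% of all tested genes, and below them for MRPS34, MRPS10 and MRPS6, against 26.8%. The remaining 7 members overlapped. By line, 44 members were higher in the piPSC library of all 3 lines and 4 were lower in all 3. The shares of all tested genes for these 2 counts were not taken, so the counts are descriptions only. A ratio of at least 2-fold was found for 18 members in line 5, 24 in line 7 and 24 in line 8, that is 34.6%, 46.2% and 46.2% of those tested, against 21.9%, 24.9% and 23.8% of all tested genes in these comparisons of 1 library with 1. The median ratio of the members was 0.73, 0.92 and 0.92 on the log2(FPKM + 1) scale in lines 5, 7 and 8, beside 0.21, 0.24 and 0.08 for all tested genes.

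Summed over the 57 members, the level was 1036, 1064 and 1150 FPKM in PEF5, PEF7 and PEF8 and 1652, 1803 and 1815 FPKM in piPSC5, piPSC7 and piPSC8. The FPKM of all genes also summed to more in the piPSC libraries, with 420498 to 437853 against 337074 to 348943 in the PEF libraries. As a share of this sum, the members took 0.307%, 0.306% and 0.33% in the PEF libraries and 0.393%, 0.412% and 0.417% in the piPSC libraries. The members took 0.21%, 0.211% and 0.216% of the fragments on listed genes in the PEF libraries and 0.36%, 0.391% and 0.398% in the piPSC libraries. The groups overlapped in neither share, and the difference was smaller in the share of FPKM. MRPS6 alone was the highest member in each PEF library, with 59.8, 92.1 and 176 FPKM. Without it, the summed level was nearly the same in the 3 PEF lines, at 976, 972 and 974 FPKM. The highest member in the piPSCs was MRPL37 or MRPS26. The SD of log2 FPKM over the 52 tested members, MRPS6 among them, was 1.09, 1.14 and 1.19 in PEFs and 0.922, 0.974 and 0.963 in piPSCs. Neither the SD without MRPS6 nor that over all tested genes was taken, so the narrower spread is a description only. In bulk samples, more mitochondrial ribosome mRNA per cell and more cells that carry it cannot be told apart.

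Promoter sequences are shown for MRPL12, whose difference was the largest of the members, for MRPS6, the member that fell, for MRPS34, which holds 3 copies of one motif, and for the start shared by MRPL46 and MRPS11, since the members' promoters were searched for binding motifs of the factors known to drive nuclear genes of mitochondrial proteins. The windows run from 250 bases before to 50 after the RefSeq start on Sscrofa11.1, 5′ to 3′ on the gene's strand, with motif matches in capitals.
MRPL12 (chr12:1203768-1204067, minus strand): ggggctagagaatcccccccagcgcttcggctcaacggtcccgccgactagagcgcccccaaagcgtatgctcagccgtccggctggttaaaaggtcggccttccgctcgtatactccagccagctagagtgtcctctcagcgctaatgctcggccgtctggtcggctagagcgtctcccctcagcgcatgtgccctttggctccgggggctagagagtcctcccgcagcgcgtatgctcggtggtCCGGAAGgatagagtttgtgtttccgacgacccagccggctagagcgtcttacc
MRPL46 (chr1:191321740-191322039, plus strand): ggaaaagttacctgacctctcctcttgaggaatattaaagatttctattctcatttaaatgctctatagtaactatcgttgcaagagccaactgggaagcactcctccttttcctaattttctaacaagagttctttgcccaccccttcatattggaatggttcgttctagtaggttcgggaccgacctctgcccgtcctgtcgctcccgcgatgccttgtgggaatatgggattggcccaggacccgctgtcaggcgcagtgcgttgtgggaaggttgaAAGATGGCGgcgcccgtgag
MRPS34 (chr3:40193828-40194127, plus strand): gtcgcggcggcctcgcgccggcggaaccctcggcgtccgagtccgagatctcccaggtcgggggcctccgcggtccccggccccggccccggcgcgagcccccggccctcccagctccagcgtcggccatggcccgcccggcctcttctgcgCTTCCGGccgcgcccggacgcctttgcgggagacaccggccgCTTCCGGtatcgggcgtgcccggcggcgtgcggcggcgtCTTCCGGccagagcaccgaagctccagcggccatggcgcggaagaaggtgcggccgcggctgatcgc
MRPS6 (chr13:197687656-197687955, plus strand): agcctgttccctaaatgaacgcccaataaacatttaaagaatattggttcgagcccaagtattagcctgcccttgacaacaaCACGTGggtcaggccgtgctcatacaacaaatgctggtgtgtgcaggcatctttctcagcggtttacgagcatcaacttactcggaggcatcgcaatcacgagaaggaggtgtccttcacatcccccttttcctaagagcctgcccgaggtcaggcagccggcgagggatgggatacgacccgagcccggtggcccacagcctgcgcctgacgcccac
The capitals are 1 ETS-type match in MRPL12, 1 YY1-type match in MRPL46, 3 ETS-type matches in MRPS34 and 1 E-box in MRPS6. The letters searched on both strands were GCGCANGCG (NRF1-type), CCGGAAG (ETS-type, the core that GABPA also binds), AAGATGGCG (YY1-type) and CACGTG (E-box, bound by MYC among others), and none of them contains another.

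RefSeq gave a window for 55 of the 57 members. NRF1-type matches stood in 9 windows (16.4%, against 8.54% of 19534 protein-coding promoters), ETS-type matches in 15 (27.3%, against 11%), YY1-type matches in 4 (7.27%, against 1.47%) and E-boxes in 5 (9.09%, against 7.92%). Of the members' windows 50.9% held none of these, against 75.4% of all promoters, at a mean GC content of 59.8% and 58.3%. Promoters of cytosolic ribosomal proteins held the NRF1-type letters in 18.4% of 76 windows, the ETS-type in 34.2%, the YY1-type in 2.63% and the E-box in 7.89%. Among members with a window, 18 of 37 that rose and 9 of 13 that were tested and did not rise held at least 1 match. The median difference of tested members was 0.93 with a match and 0.86 without one. Of the 4 windows with YY1-type letters, those of MRPL46 and MRPS11 overlap and hold the same site, which is thus counted in both. A match gives only the letters in the window and says nothing of binding.

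MRPL46, a protein of the large subunit, and MRPS11, a protein of the small subunit with a bacterial counterpart, are transcribed away from each other on chromosome 1. The RefSeq start of MRPS11 lies inside the MRPL46 window printed above, and both windows hold the same YY1-type match. MRPL46 was at 18.1, 15.3 and 22.3 FPKM in PEF5, PEF7 and PEF8 and at 30.7, 38.5 and 47.0 FPKM in piPSC5, piPSC7 and piPSC8, a rise of 1.02 ± 0.22 (log2 difference ± SE, limma adjusted p = 0.00894). MRPS11 was at 11.5, 11.2 and 10.5 FPKM in PEFs and at 13.7, 15.3 and 15.2 FPKM in piPSCs. Its groups did not overlap either, but its difference of 0.38 ± 0.14 did not pass (limma adjusted p = 0.0635). Whether the 2 differences differ was not tested. Another 18 members have a start within 1000 bp of the start of a gene on the opposite strand that is no member.

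The 10 largest increases with a call were those of MRPL12, MRPL55, MRPS5, MRPL37, MRPL4, MRPS9, MRPL20, MRPS26, MRPL1 and MRPS28, with log2 differences from 1.35 to 1.85. The choice was limited to members with the same direction in all 3 lines, so each was higher in all of them by that condition. Each kept its call in all 16 fits. MRPL12 (ENSSSCG00000033148, chromosome 12 from 1197671 to 1204372) is a stalk protein of the large subunit and is also known to bind the mitochondrial RNA polymerase. It was at 13.5, 18.2 and 10.1 FPKM in PEF5, PEF7 and PEF8 and at 52.3, 51.4 and 51.0 FPKM in piPSC5, piPSC7 and piPSC8. The piPSC lines lay within a narrow range, whereas the PEF lines varied. The difference of 1.85 ± 0.22 (limma adjusted p = 0.00106) is 3.61-fold on the FPKM + 1 scale.

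MRPL12 works with MRPL10 and MRPL11 at the base and stalk of the large subunit, where the elongation factors dock. MRPL11 rose from 38.7, 34.5 and 34.1 FPKM in the 3 PEF lines to 80.0, 89.5 and 90.6 FPKM in the piPSC lines (1.25 ± 0.13, limma adjusted p = 0.000802). MRPL10, which anchors the stalk, had 12.4, 12.2 and 11.2 FPKM in PEFs and 19.9, 18.8 and 17.3 FPKM in piPSCs. Its groups were apart and its difference was 0.60 ± 0.14 (limma adjusted p = 0.0133). This call was lost without piPSC5 (adjusted p = 0.0549) and under both rescalings (adjusted p = 0.082 and 0.146), and 100% of the span of MRPL10 is overlapped by SCRN2 on the same strand.

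Other members of the large subunit with large increases were MRPL37, MRPL55, MRPL4, MRPL20 and MRPL1. MRPL37, a protein without a bacterial counterpart, was at 33.2, 37.8 and 31.8 FPKM in PEFs and at 99.6, 101 and 117 FPKM in piPSCs (1.60 ± 0.14, limma adjusted p = 0.00045), which made it one of the 5 most abundant members. MRPL55, likewise specific to mitochondria, rose from 13.4 ± 3.86 to 47.1 ± 8.88 FPKM (SD, n = 3), in a span that other rows cover to 100%. MRPL1, a protein of the flexible arm beside the site where the used tRNA leaves, rose from 3.25 ± 0.46 to 9.95 ± 1.67 FPKM. MRPL4 rose from 6.64 ± 0.739 to 21.95 ± 3.91 FPKM and MRPL20 from 17.8 ± 2.3 to 53.4 ± 6.21 FPKM.

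**Figure D2:**
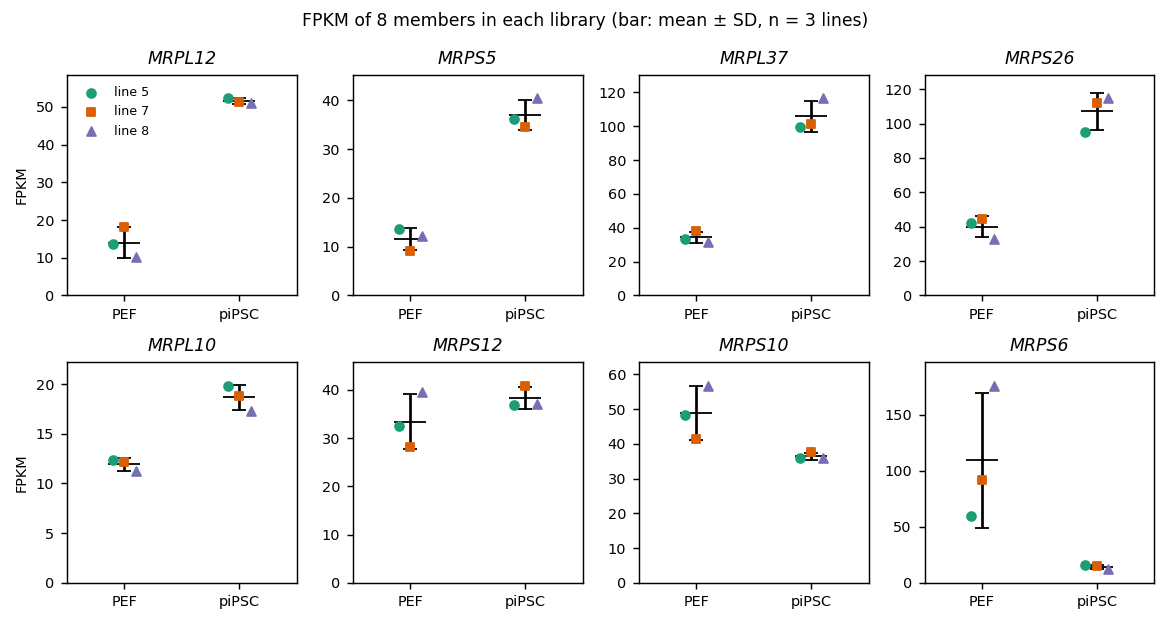
FPKM of 8 members in each of the 6 libraries, with the line shown by the mark and the mean ± SD of 3 lines as bars. MRPL12, MRPS5, MRPL37, MRPS26 and MRPL10 are higher in every piPSC library, MRPS12 overlaps, MRPS10 is lower in every piPSC library, and MRPS6 falls from 109 to 14.1 FPKM with the widest spread among PEFs.

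In the small subunit, MRPS5, MRPS9, MRPS26 and MRPS28 had the largest increases. MRPS5 was at 13.6, 9.03 and 12.1 FPKM in PEFs and at 36.2, 34.4 and 40.4 FPKM in piPSCs (1.61 ± 0.19, limma adjusted p = 0.000986). MRPS26, specific to mitochondria, was at 42.1, 44.5 and 33.0 FPKM in PEFs and at 94.8, 112 and 115 FPKM in piPSCs (1.41 ± 0.17, limma adjusted p = 0.00112). Both lay well apart between the groups. MRPS9 rose from 10.96 ± 1.94 to 35.1 ± 9.03 FPKM and MRPS28 from 2.88 ± 0.285 to 8.85 ± 0.149 FPKM (SD, n = 3).

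By subunit, 27 of 35 tested proteins of the large subunit rose (77.1%) and none fell, with a median difference of 0.97. Of 17 tested proteins of the small subunit 11 rose (64.7%) and MRPS6 fell, with a median of 0.66. Members with a bacterial counterpart had 21 rises among 29 tested (72.4%) and a median of 0.93, and members specific to mitochondria had 17 among 23 (73.9%) and a median of 0.86. Over all tested genes, 30.3% rose and 21.5% fell, with a median of 0.20. The medians are given as descriptions, and no test compared the classes.

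Among members known for a function of their own, MRPL58 and MRPL45 rose and MRPS12 did not pass. MRPL58 (also named ICT1), a peptide-releasing hydrolase built into the large subunit, was at 5.20, 6.30 and 6.06 FPKM in PEFs and at 11.04, 12.3 and 14.3 FPKM in piPSCs (0.98 ± 0.17, limma adjusted p = 0.00452). MRPL45, which lies at the tunnel exit and ties the ribosome to the inner membrane, was at 27.7, 23.4 and 35.6 FPKM in PEFs and at 58.1, 61.5 and 62.4 FPKM in piPSCs (1.06 ± 0.18, limma adjusted p = 0.00376). MRPS12, the protein of the decoding site, was at 32.5, 28.2 and 39.5 FPKM in PEFs and at 36.8, 40.9 and 37.2 FPKM in piPSCs. Its groups overlapped (0.20 ± 0.17, limma adjusted p = 0.33), and its sign turned after both rescalings.

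The 3 proteins of the S18 family take different places. MRPS18C is the counterpart of the bacterial protein, MRPS18B sits elsewhere in the small subunit and MRPS18A in the large one. MRPS18B was at 40.05, 43.1 and 35.0 FPKM in PEFs and at 54.1, 53.9 and 56.7 FPKM in piPSCs. The groups did not overlap, and the difference of 0.47 ± 0.14 passed narrowly (limma adjusted p = 0.0279). With the line as a block it did not pass (limma adjusted p = 0.0607), nor without PEF5, PEF8 or any single piPSC library (adjusted p from 0.0547 to 0.08) or after rescaling (adjusted p = 0.316 and 0.393). MRPS18A was at 13.9, 15.2 and 22.02 FPKM in PEFs and at 20.6, 17.02 and 14.7 FPKM in piPSCs. It was higher in piPSCs in lines 5 and 7 and lower in line 8, and its difference of 0.05 ± 0.22 (limma adjusted p = 0.866) turned negative after both rescalings. MRPS18C had between 4 and 16 fragments in a library and was not tested.

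MRPS10, MRPS34 and MRPL52 had lower means in piPSCs, but none passed. MRPS10, a protein of the head of the small subunit, was at 48.4, 41.4 and 56.8 FPKM in PEFs and at 35.8, 37.6 and 35.9 FPKM in piPSCs. The piPSC lines were close to each other and all below the PEF lines (-0.40 ± 0.16, limma adjusted p = 0.0707). MRPS34, specific to mitochondria, was at 53.3, 57.5 and 58.3 FPKM in PEFs and at 45.1, 49.9 and 51.9 FPKM in piPSCs, also without overlap (-0.20 ± 0.13, limma adjusted p = 0.238). Both passed as lower when the libraries were rescaled, MRPS10 at -0.67 and -0.73 (limma adjusted p = 0.0118 and 0.011) and MRPS34 at -0.47 and -0.52 (limma adjusted p = 0.0425 and 0.0164), and MRPS10 also without PEF7 (limma adjusted p = 0.0439). MRPL52, whose groups overlapped, was at 39.4, 47.8 and 33.5 FPKM in PEFs and at 37.8, 45.4 and 27.9 FPKM in piPSCs (-0.13 ± 0.23, limma adjusted p = 0.654), and its span is overlapped to 100% by SLC7A7 on the other strand.

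MRPS25, a small subunit protein, and MRPL17, a large subunit protein with a bacterial counterpart, changed direction between lines. MRPS25 was at 21.9, 17.02 and 20.6 FPKM in PEFs and at 20.1, 26.6 and 28.1 FPKM in piPSCs (0.31 ± 0.19, limma adjusted p = 0.206), and its sign turned with equal sums. MRPL17 was at 47.6, 42.9 and 43.3 FPKM in PEFs and at 42.6, 53.5 and 46.2 FPKM in piPSCs (0.08 ± 0.15, limma adjusted p = 0.654), and its sign turned after both rescalings. In both genes line 5 was the line with the lower piPSC value. MRPL57, a large subunit protein, was the member with the widest error, with 4.94, 14.6 and 9.97 FPKM in PEFs and 17.2, 33.2 and 11.14 FPKM in piPSCs (0.97 ± 0.48, limma adjusted p = 0.134). The 29 tested members outside the rule for naming had 23 rises, with differences from 0.15 to 1.33. The rule names every member with a negative difference or a direction that differed between lines. That none of the 29 fell therefore follows from the rule. Their count of rises is a remainder and cannot be set against the 30.3% of all tested genes. Of the 29, MRPL34, MRPL35, MRPL40, MRPL9, MRPL57 and MRPS11 did not pass. MRPL34 and MRPL9 turned sign after both rescalings.

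MRPS6 (ENSSSCG00000026981, chromosome 13 from 197688331 to 197756771, plus strand), a small subunit protein with a bacterial counterpart, was the member that fell. It was at 59.8, 92.1 and 176 FPKM in PEF5, PEF7 and PEF8 (1242, 1791 and 3105 fragments) and at 15.8, 14.6 and 12.1 FPKM in piPSC5, piPSC7 and piPSC8 (276, 202 and 155 fragments). The PEF lines differed from each other up to line 8, while the piPSC lines were alike. The mean went from 109 ± 60.0 to 14.1 ± 1.87 FPKM (SD, n = 3), a difference of -2.73 ± 0.38 (limma adjusted p = 0.00182). The adjusted p was between 0.00122 and 0.00861 over all 16 fits.

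Another 2 rows lie over 94.9% of the MRPS6 span, and both fell as well.
A row on the opposite strand with no symbol (ENSSSCG00000032547), which the table describes as a mitochondrial S6 protein, overlaps MRPS6 by 34912 bp. It was at 103, 251 and 228 FPKM in PEFs and at 20.3, 13.7 and 12.97 FPKM in piPSCs (-3.47 ± 0.37, limma adjusted p = 0.000773). SLC5A3, an inositol transporter gene on the same strand, overlaps MRPS6 by 30064 bp and was at 8.61, 9.11 and 11.5 FPKM in PEFs and at 4.45, 3.62 and 3.84 FPKM in piPSCs (-1.11 ± 0.19, limma adjusted p = 0.00371). The library kit named in the labels does not mark strand, so reads from MRPS6 and from the opposite strand cannot be told apart, and how fragments shared by rows were counted is not given in the sources used here. Without the 9 tested members that other rows overlap by at least 90%, 34 of 43 members rose (79.1%). None of the 43 fell, since MRPS6, the only member called lower, is among those set aside. Among the 25 members with no overlap 21 rose (84%), and among the 27 with some overlap 17 rose (63%). Of all tested genes, whatever their overlap, 30.3% rose, and the share under the same overlap limits was not taken.

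**Figure D3:**
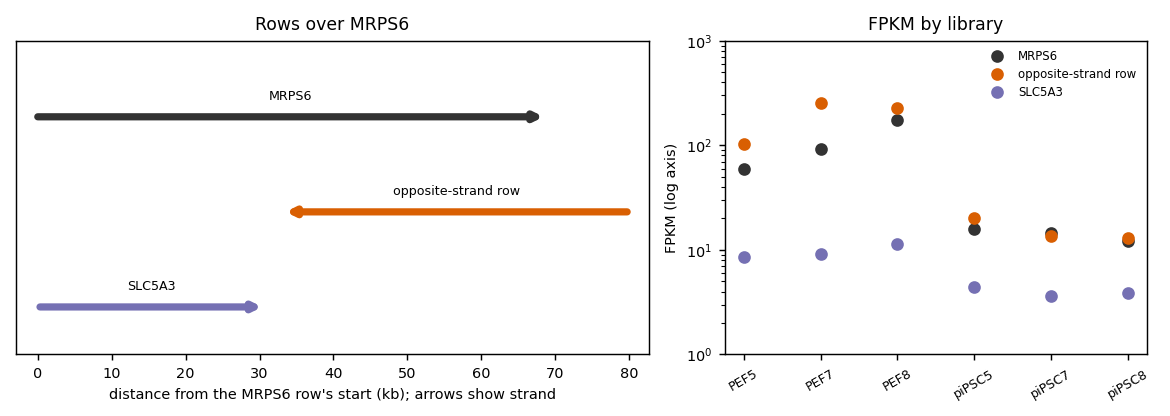
Left, the table's rows over MRPS6 drawn to scale by distance in kb from the start of the MRPS6 row, with arrows for the strand. Right, FPKM of each row by library on a log axis: MRPS6 goes from 59.8 to 176 FPKM in PEFs down to 12.1 to 15.8 FPKM in piPSCs, and the 2 rows over it are lower in every piPSC library.

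The members with the lowest levels form a group apart. MRPL24, MRPL28, MRPL49, MRPS7 and MRPS18C stayed under 1 FPKM in every library and were not tested, while each of the other 52 was at 2 FPKM or more in every library, with means of at least 4.68 FPKM. MRPL24, a large subunit protein, had from 6 to 16 fragments in a library and 0.346 to 0.729 FPKM. MRPS7, a protein of the head of the small subunit, had from 4 to 21 fragments and at most 0.214 FPKM. MRPL28 had from 8 to 28 fragments, MRPL49 from 6 to 12 and MRPS18C from 4 to 16. All 3 piPSC values lay above all 3 PEF values for MRPS18C and MRPL49, and the groups overlapped for the others. With no filter on low values, MRPS18C, the S18 protein of the bacterial type, passed as higher (0.22 ± 0.06, limma adjusted p = 0.0376) and the other 4 did not pass, with MRPL49 at 0.12 ± 0.05 (adjusted p = 0.109) and MRPL24, MRPL28 and MRPS7 between 0.01 and 0.05. These differences rest on at most 28 fragments in a library.
The spans of these 5 members were overlapped by other rows to a median of 91.4%, against 0.218% for the other 52 members, of which 27 had some overlap. In RefSeq, the exons of MRPS7 are shared with other genes over 88.7% of their length, those of MRPS18C over 75.8%, MRPL49 over 27.7%, MRPL28 over 1.26% and MRPL24 over 0%. The rows that overlap them differed in level. GGA3 and MIF4GD over MRPS7 did not pass 0.133 FPKM, and TMEM8A over MRPL28 did not pass 0.207 FPKM. Others were higher than the member they cover: RRNAD1 over MRPL24 was at 3.28 to 4.09 FPKM, SYVN1 over MRPL49 at 0.817 to 2.12 FPKM, ENSSSCG00000039740 over MRPL49 at 0.872 to 2.24 FPKM, and HELQ and ABRAXAS1 over MRPS18C at 1.76 to 2.96 and 0.352 to 1.36 FPKM. The part of the overlaps in these levels was not tested.

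**Figure D4:**
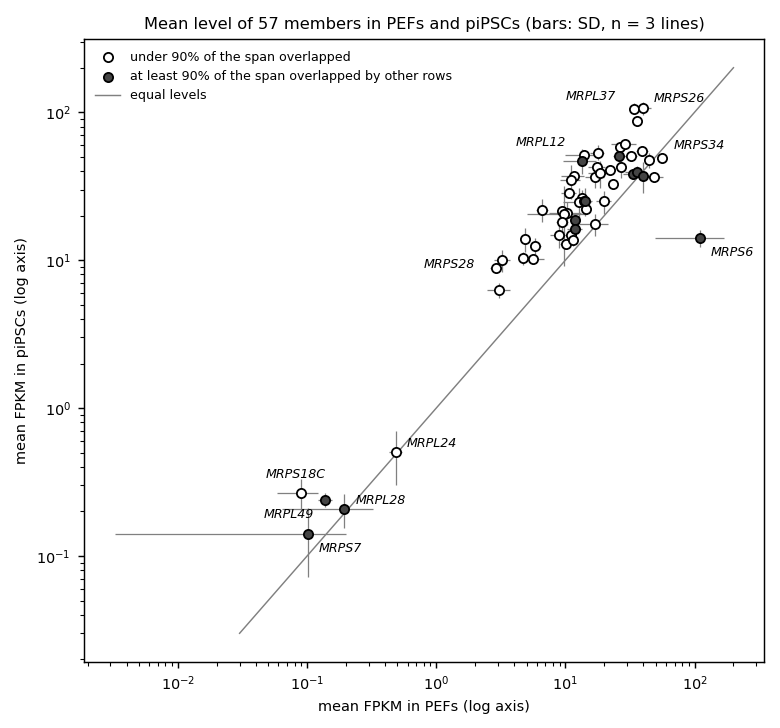
Mean FPKM in PEFs (horizontal, log axis) and piPSCs (vertical, log axis) of all 57 members, with SD over 3 lines as bars and the line of equal levels. Most members lie above that line, MRPS6 lies far below it at 109 against 14.1 FPKM, and 5 members lie apart under 1 FPKM. Filled circles mark spans that other rows overlap by at least 90%.

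Some proteins of the same ribosome are not named MRP. Of 5 that are in the table, 3 rose (60%, against 30.3% of all tested genes) and none fell, with a median difference of 0.71, and 1 or 2 rose after either rescaling, with voom, without PEF7 and without piPSC5. PTCD3, an RNA-binding protein at the mRNA entrance of the small subunit, was at 10.995, 7.69 and 7.99 FPKM in PEFs and at 44.5, 40.5 and 57.8 FPKM in piPSCs, and its difference of 2.30 ± 0.21 (limma adjusted p = 0.000469) was larger than the increase of any member. AURKAIP1 rose from 39.3 ± 3.14 to 73.1 ± 13.9 FPKM (0.87 ± 0.18, limma adjusted p = 0.00743), and its adjusted p was 0.0527 with the median ratio. DAP3, a GTP-binding protein of the small subunit, rose from 9.29 ± 0.984 to 15.9 ± 2.87 FPKM (0.71 ± 0.19, limma adjusted p = 0.0187), but not without PEF7 (adjusted p = 0.0617), without piPSC5 (adjusted p = 0.0521) or after rescaling (adjusted p = 0.0682 and 0.115). CHCHD1 was at 12.6 ± 1.08 and 13.98 ± 1.92 FPKM and did not pass (0.14 ± 0.17, limma adjusted p = 0.511). GADD45GIP1 was low, with 0.415 ± 0.0497 and 1.35 ± 0.519 FPKM, and passed in 5 of 15 fits, though not in the one reported (0.70 ± 0.25, limma adjusted p = 0.0557). Another 8 genes of the MRP family are listed by identifier only and were named from a table of gene identifiers: 7 of them rose (87.5%, against 30.3% of all tested genes, and 4 with voom), with MRPS27 at the head (1.17 ± 0.18, limma adjusted p = 0.00264), and MRPL33 was at 33.4 ± 4.66 and 35.4 ± 5.79 FPKM (0.08 ± 0.18, limma adjusted p = 0.731).

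The ribosome is built by helper GTPases and enzymes that modify its RNA. Of 21 tested assembly and rRNA factors 11 rose (52.4%, against 30.3% of all tested genes) and none fell, with a median of 0.67. After either rescaling, with voom or without piPSC5, 7 of them rose. NOA1, a GTPase of mitochondrial translation, rose from 3.51 ± 0.737 to 20.1 ± 4.04 FPKM (2.22 ± 0.22), METTL17 by 1.52 ± 0.16, RBFA by 1.42 ± 0.26 and MRM3, an rRNA methyltransferase, by 1.37 ± 0.20 (limma adjusted p from 0.000586 to 0.00503). MTG1 (-0.15 ± 0.26), MTG2 (-0.05 ± 0.19) and RPUSD3 (-0.38 ± 0.21) had negative differences that did not pass (limma adjusted p = 0.642, 0.846 and 0.171). RPUSD3 passed as lower after both rescalings (limma adjusted p = 0.0458 and 0.0335).

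Of 16 tested translation factors 11 rose (68.8%, against 30.3% of all tested genes), with a median of 1.05. TUFM, the elongation factor that brings the tRNA, was at 72.2, 80.0 and 60.0 FPKM in PEFs and at 308, 309 and 359 FPKM in piPSCs (2.19 ± 0.16, limma adjusted p = 0.000296). LRPPRC, which stabilises mitochondrial mRNAs, was at 15.2, 11.9 and 11.4 FPKM in PEFs and at 120, 84.1 and 154 FPKM in piPSCs (3.09 ± 0.25, limma adjusted p = 0.000356). GUF1 rose by 2.28 ± 0.21 and GFM1, the elongation factor of the translocation step, by 1.94 ± 0.22 (limma adjusted p = 0.000495 and 0.000923). MTRF1L, a release factor, was at 15.6 ± 4.57 and 11.4 ± 0.868 FPKM and did not pass (-0.38 ± 0.22, limma adjusted p = 0.187), but passed as lower after both rescalings (limma adjusted p = 0.0493 and 0.0417). Of 17 mitochondrial aminoacyl-tRNA synthetases, which charge the tRNAs, 13 rose (76.5%), all of these at least 2-fold (against 20.2% of all tested genes), with a median of 1.498. CARS2 rose by 2.28 ± 0.25, AARS2 by 1.94 ± 0.24, NARS2 by 1.87 ± 0.19 and FARS2 by 1.78 ± 0.23 (limma adjusted p from 0.000659 to 0.00138).

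Among genes that copy and transcribe mitochondrial DNA, 10 of 12 rose (83.3%, against 30.3% of all tested genes), with a median of 1.07. ELAC2, which trims the tRNA ends of mitochondrial transcripts and also works in the nucleus, rose by 2.79 ± 0.25, TWNK, the helicase, by 2.09 ± 0.23, TFAM, which packages the DNA and starts transcription, by 1.73 ± 0.19, MGME1 by 1.67 ± 0.27 and POLRMT, the RNA polymerase, by 1.67 ± 0.19 (limma adjusted p from 0.000476 to 0.00298). TOP1MT was at 2.03 ± 0.532 and 1.07 ± 0.495 FPKM and did not pass (-0.56 ± 0.27, limma adjusted p = 0.127). The mRNAs that this ribosome translates come from the protein genes of mitochondrial DNA. They had 11 rises among 12 tested genes (91.7%, against 30.3% of all tested genes) and a median of 1.90. The proteins made from them were not measured. That count depends on the fit: with quantile normalization 7 rose, COX1 fell (-0.78, limma adjusted p = 0.0457) and the median was 0.89, and with no filter on low values 6 rose. ND1 was at 767, 529 and 1038 FPKM in PEFs and at 4600, 3904 and 4594 FPKM in piPSCs (2.54 ± 0.28, limma adjusted p = 0.000849), and ND2 rose by 2.37 ± 0.26, ND4L by 2.28 ± 0.32 and COX2 by 2.13 ± 0.30 (limma adjusted p = 0.000878, 0.00192 and 0.00188). COX2, COX3, ATP6 and ND4 did not pass with quantile normalization (0.55, 0.28, 0.12 and 0.81, limma adjusted p = 0.111, 0.221, 0.681 and 0.0811) or with no filter (limma adjusted p = 0.217, 0.566, 0.17 and 0.0786), and ND6 did not pass with no filter (limma adjusted p = 0.114) or with the median ratio (limma adjusted p = 0.0511). COX1 did not pass as reported (0.67, limma adjusted p = 0.0767). Of 15 import and outer membrane genes 12 rose (80%, against 30.3% of all tested genes), with a median of 1.19, led by TOMM20 (2.80 ± 0.24), TIMM44 (2.29 ± 0.18), TIMM50 (2.27 ± 0.24) and VDAC2 (1.72 ± 0.15), with limma adjusted p from 0.000357 to 0.000788. VDAC3 was at 89.8 ± 20.1 and 66.8 ± 7.47 FPKM and did not pass (-0.40 ± 0.19, limma adjusted p = 0.122), but passed as lower after both rescalings (limma adjusted p = 0.0231 and 0.0245).

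Of 9 regulators of these genes 4 rose (44.4%, against 30.3% of all tested genes), 1 fell (against 21.5%) and 4 did not pass, with a median of 0.60. The coactivators PPARGC1B and PPRC1 rose by 2.92 ± 0.28 and 1.75 ± 0.21, ESRRA, a nuclear receptor that works with them, by 1.17 ± 0.18, and GABPA, an ETS factor, by 1.01 ± 0.17 (limma adjusted p from 0.000525 to 0.00368). NRF1 was at 6.03, 5.69 and 10.6 FPKM in PEFs and at 6.80, 6.04 and 7.21 FPKM in piPSCs (-0.09 ± 0.25, limma adjusted p = 0.775). YY1 was at 15.0, 14.7 and 16.7 FPKM in PEFs and at 22.3, 17.6 and 22.8 FPKM in piPSCs (0.41 ± 0.16, limma adjusted p = 0.0737), and passed without piPSC7 (adjusted p = 0.0406). PPARGC1A was at 0.198 ± 0.193 and 0.942 ± 0.851 FPKM (0.60 ± 0.40, limma adjusted p = 0.243), and passed without piPSC8 (1.00, adjusted p = 0.0278). MYC was the regulator that fell, from 50.9, 58.9 and 6.95 FPKM in PEF5, PEF7 and PEF8 to 1.42, 1.05 and 0.267 FPKM in the piPSCs (-3.98 ± 0.78, limma adjusted p = 0.00634), and with voom on recovered fragments its difference was -5.39 but did not pass (adjusted p = 0.0644). The reprogramming cassette also carries a c-Myc sequence, and whether any of its reads are in this row is not given in the sources used here.

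**Figure D5:**
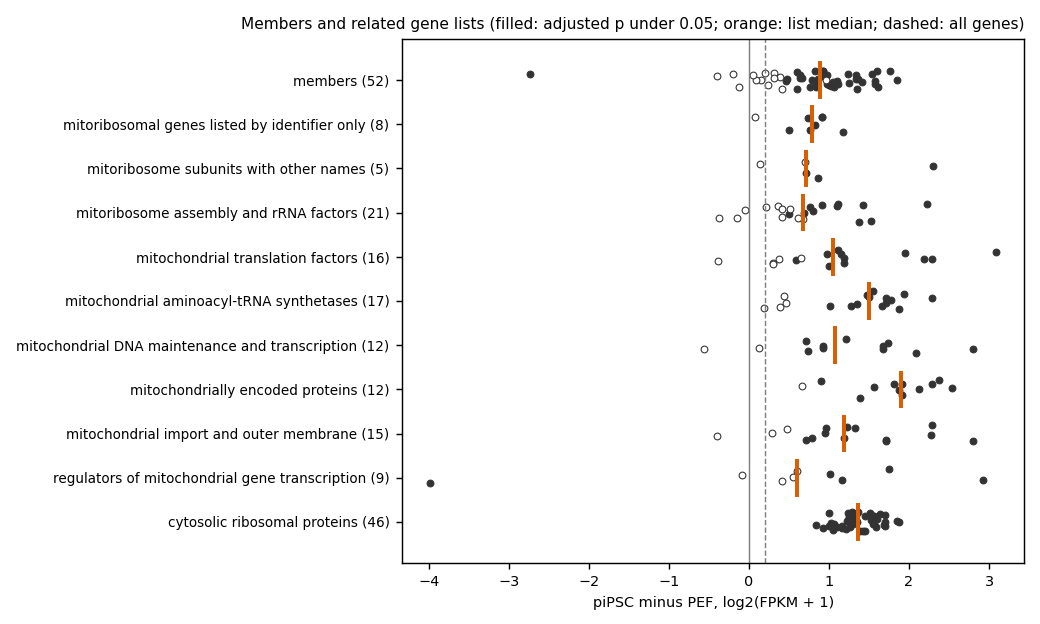
Difference between piPSCs and PEFs in log2(FPKM + 1) of each tested gene of the members and of 10 related lists, with the number tested in brackets, filled marks at an adjusted p under 0.05, and list medians in orange. The medians run from 0.60 for regulators to 1.90 for mitochondrially encoded proteins, with 0.89 for the members and 1.36 for cytosolic ribosomal proteins, and the dashed line marks all tested genes at 0.20.

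Cytosolic ribosomal proteins, which build the ribosome outside the organelle, all rose: 46 of 46 tested, against 30.3% of all tested genes, and 38 or 42 after rescaling, with a median of 1.36 and differences from 0.84 to 1.87. Their summed level was 13960, 21912 and 12244 FPKM in PEFs and 36340, 42778 and 39224 FPKM in piPSCs. The summed level of the members was 7.42%, 4.86% and 9.39% of that of the cytosolic proteins in the PEF lines and 4.55%, 4.21% and 4.63% in the piPSC lines. With MRPS6 included, the PEF lines thus spread over a wider range than the piPSC lines and lay above them, with PEF7 the closest. Without MRPS6 the members summed to 972 FPKM in PEF7 and 1637 FPKM in piPSC5. The share in PEF7 then no longer lay above that in piPSC5. No test compared the lists with each other.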

How the data were processed

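Expression was measured by poly-A RNA-seq of 3 PEF and 3 piPSC lines (150 bp paired-end). The authors deposited FPKM values per gene; per the labels, the processing notes name HISAT2 2.1.0, Bowtie2 2.2.3, HTSeq 0.6.0 and Sscrofa11.1, and how shared fragments were counted is not given in the sources used here. Library totals were inferred from the FPKM values of small RNA genes, with the lowest repeated level taken as 1 fragment. For each gene the shortest length was fitted that made its values whole fragments, within 0.001 fragments or more widely at high counts. A length was found for all 18007 genes (100%) and gave the fragments. Because the length is fitted, this share is no independent check.

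Groups were compared with limma 3.58.1 in R 4.3.3 (trend, unpaired, two-sided, Benjamini-Hochberg over 12428 genes with a mean of at least 0.5 FPKM) on log2(FPKM + 1), a scale that understates changes of low genes. Tested on simulated data of this comparison (12334 genes), 93 of 97 genes changed 4-fold were called. Of all 197 tested genes changed 2-fold or 4-fold, 170 were called, and 16 unchanged genes were called. The largest rise of a member was 3.61-fold, so the 4-fold rate does not describe the members that rose. The simulation gave every gene the same extra spread between libraries, and so cannot show how often calls fail among these lines. An exact permutation test of 3 against 3 cannot give a p under 0.1. The line number pairs the libraries, since the piPSCs of a number derive from the PEFs of that number. Deviations from group means correlated at 0.0921, 0.0946 and 0.08 within lines and between -0.121 and 0.0553 across lines.

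The members and lists were chosen with earlier results of these data known. Genes named were members with a negative difference, the 5 highest and 5 lowest means, and members whose direction differed between lines. The 10 largest called increases with the same direction in all 3 lines were named too. So were stalk, decoding, exit and S18 proteins, subunits with other names and 8 regulators. Per list, the 4 largest changes and those against the list's median were named. MRPL46, MRPS11, MRPL57, MRPS27, MRPL33 and rows over members were added after their values were seen. Of 13194 symbols shared with RefSeq, 99.8% lay at overlapping positions, and RefSeq starts were used for promoters. Overlap does not make the starts the same. MRPL12, on the minus strand, starts at 1204372 in its row and at 1203817 in RefSeq. MRPS6 starts at 197688331 and 197687906, and MRPS22 at 80207596 and 80006656. The windows and their motif matches depend on this choice. Python 3.11.15, numpy 2.4.6 and pandas 2.3.3 were used. Alternatives were a replicate block, other pseudocounts, filters and scalings, no trend, voom on fragments and leaving out each library.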

Additional observations from a re-analysis of the deposited data

Results flagged for a closer look

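MRPL17, MRPS12, MRPS18A and MRPS25 moved in opposite directions in different lines. As the difference in log2(FPKM + 1) between the piPSC and the PEF library of 1 line, MRPL17 was at -0.16 in line 5, 0.31 in line 7 and 0.0909 in line 8. MRPS12 was at 0.18, 0.52 and -0.0839, MRPS18A at 0.54, 0.16 and -0.55, and MRPS25 at -0.12, 0.62 and 0.43 in lines 5, 7 and 8. Each line has 1 library per group, so whether the lines differ was not tested.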

How the results depend on the processing

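The number of members that passed was 39 as reported. It was 37 with the line as a replicate block, which lost MRPL36 and MRPS18B and changed no other member's call, 38 to 40 with another filter, pseudocount, quantile normalization or no trend, 29 or 30 with rescaling or voom, and between 32 (without piPSC5) and 37 when 1 library was left out. The signs of MRPL9, MRPL17, MRPL34, MRPS12 and MRPS18A turned with either rescaling and voom, that of MRPS25 with equal sums, and those of MRPL17, MRPL52 and MRPS18A in 1 or more fits without 1 library, none of them called. Members with at least a 2-fold change were 20, but 13 with the median ratio and 13 with equal sums, and between 19 and 25 when 1 library was left out. As reported, 20.2% of all tested genes rose and 16.7% fell at least 2-fold, and the shares in the other fits are not given here. The members' median of 0.89 moved to 0.64 with the median ratio, 0.63 with equal sums and 0.70 with voom, by the construction of these scales, and lay between 0.82 and 0.94 when 1 library was left out. Genes of the lists that passed were 76, from 67 to 78 in other fits and from 66 to 73 without 1 library. Members without overlap between groups were 45, 38 after either rescaling and 45 to 47 without 1 library. Of the 45, 42 were higher in piPSCs, against 37.3% of all tested genes, and 3 were lower, against 26.8%. The shares of all tested genes after rescaling or without 1 library are not given here, so those counts are descriptions only. Members higher in all 3 lines were 44, and 37 after either rescaling, with no share of all tested genes taken beside them. Setting aside rows over other genes was chosen after the data were seen. Among single named genes, 957 refits stayed on their side of the threshold, 23 lost a call and 21 gained one. The inferred totals of 11010629 fragments or more gave the 5 members under 1 FPKM at most 28 fragments in a library. With no filter, MRPS18C passed as higher and made the count 40.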
